A study of Mus musculus with 41 samples.

Results

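The protein 4.1 genes Epb41, Epb41l1, Epb41l2, Epb41l3 and Epb41l5 encode adaptors beneath the cell membrane. Their FERM domain binds the inner ends of membrane proteins, and the family members with a spectrin-actin binding region tie those proteins to the membrane skeleton. In neurons they are known for holding glutamate receptors, adhesion molecules and channels in place, and Epb41l1 is the member best known from neurons, where its protein binds the AMPA receptor subunit encoded by Gria1. The members were every probe set that the platform annotation assigns to 1 of these symbols. This gave 4 of 18193 named genes and 15 of 45037 probe sets: 3 of Epb41l1, 5 of Epb41l2, 3 of Epb41l3 and 4 of Epb41l5. Epb41 is not analysed here. The family was chosen by a measured value: its Epb41l1 probe set 1421090_at was lower in mice of high than of medium cognition on these same arrays, so that difference is described below and not tested.

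Hippocampal RNA of 41 males of the inbred strain C57BL/6J was hybridised to Affymetrix expression arrays, 1 per mouse. All mice went through the same battery of behavioural tests, which began at an age of 10 weeks and whose last cognitive test ran at 37 to 38 weeks, and RNA was extracted 1 month after testing ended. The labels give neither a transgene nor a drug treatment. Both of the study's ranking systems placed 8 mice in the low, 12 in the medium and 5 in the high class of cognition. The ranking of 14 mice was inconsistent, and 2 mice with incomplete behaviour data were described by values only. The label of inconsistent replicate 2 also calls that mouse medium, and its 1421090_at value was 7.97.

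The levels below are log2 of the quantile-normalized probe set intensity plus 16, and differences are on the same scale, which understates changes of dim probe sets. Levels of different probe sets were not set against each other. Of the 15 probe sets, 10 were at or above the median brightness of all probe sets and entered a limma fit with 22519 probe sets. They were all 3 of Epb41l1, 4 of Epb41l2, 2 of Epb41l3 and 1 of Epb41l5. At the brightness limit of 5.74, Epb41l5 1455861_at lay just inside with a mean of 5.75 and Epb41l5 1439284_at just outside with 5.69.

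Medium replicate 9 stood apart from the other 40 arrays. Its mean over dentate granule cell markers was 6.13, against 8.32 to 8.82 on the others, and its mean over CA pyramidal cell markers was 7.71, against 8.59 to 8.98. Its neocortical layer markers averaged 9.29, against 7.80 to 8.28, and its striatal markers 8.99, against 7.91 to 8.29. The array labelled hippocampus thus carried low levels of hippocampal markers. Of the 15 family probe sets, 5 were higher on it than on every other array and 2 lower. The same counts over all probe sets were not taken, so nothing about the family is read from them. Several results that rest on this array are given with and without it. Bacterial and phage spike-in controls divided the arrays into 3 clusters of 7, 10 and 24 arrays, the second with 1 high mouse and the third with 4, and arrays with bright choroid plexus markers numbered 3 low, 4 medium, 3 inconsistent and 1 incomplete one and 0 high ones. The labels give no batch.

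Epb41l1 is annotated with start sites 54625 bases apart. The sequences are the 250 bases before the first and the last annotated start in RefSeq (GRCm38.p6), both on the plus strand, with CpG pairs in capitals.
Epb41l1 first start, chr2:156420659-156420908: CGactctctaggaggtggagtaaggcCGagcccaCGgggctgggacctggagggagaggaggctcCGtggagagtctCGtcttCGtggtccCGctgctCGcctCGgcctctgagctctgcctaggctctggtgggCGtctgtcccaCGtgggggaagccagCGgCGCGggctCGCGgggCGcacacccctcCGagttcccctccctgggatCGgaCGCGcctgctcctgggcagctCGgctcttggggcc
Epb41l1 last start, chr2:156475284-156475533: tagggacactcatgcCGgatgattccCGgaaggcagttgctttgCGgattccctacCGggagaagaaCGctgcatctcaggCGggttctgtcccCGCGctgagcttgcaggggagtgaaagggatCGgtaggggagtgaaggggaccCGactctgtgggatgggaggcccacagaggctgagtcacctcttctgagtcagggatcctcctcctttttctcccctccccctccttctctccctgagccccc
The first held 22 CpG pairs and the last 10, against a median of 6 over the same stretch of 32851 promoters, of which 85.2% and 62.2% had fewer. No DNA methylation was analysed here, and the transcript that each probe set reads was not analysed here.

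The Epb41l1 probe set 1421090_at was lowest in the high mice and highest in the medium mice. The 5 high arrays read 7.76, 7.36, 7.18, 7.13 and 7.69, with a mean of 7.42 ± 0.29 (SD, n = 5). The 12 medium arrays ran from 7.67 through a median of 7.95 to 8.05, with a mean of 7.89 ± 0.12 (SD, n = 12). High replicates 2, 3 and 4 lay below every medium array, while high replicates 1 and 5 lay inside the medium range. The 8 low arrays ran from 7.56 through 7.73 to 7.85 (mean 7.71 ± 0.11 SD), and the 14 inconsistent arrays from 7.29 through 7.69 to 7.97 (mean 7.66 ± 0.18 SD). The 2 incomplete arrays read 7.47 and 7.68.

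**Figure D1:**
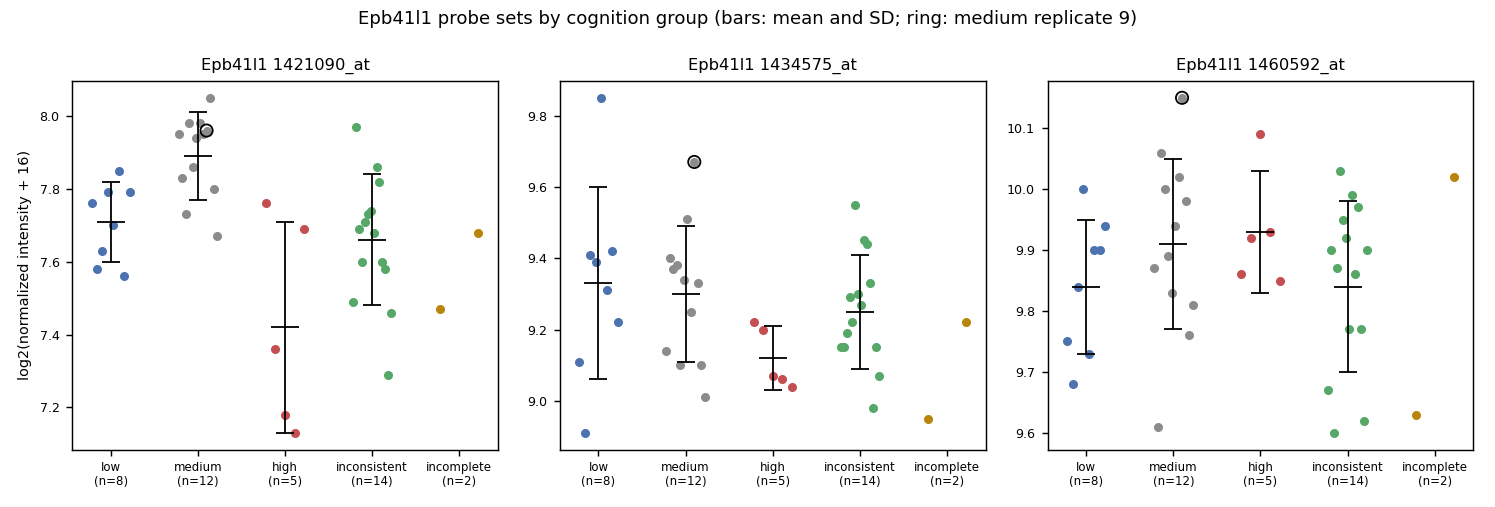
Level of each Epb41l1 probe set, as log2(normalized intensity + 16), on every array by cognition group; horizontal bars are group means, error bars are SDs, and the ring marks medium replicate 9. At 1421090_at 3 of 5 high arrays lie below every medium array, at 1434575_at the high arrays lie in the lower part of the range, and at 1460592_at the groups overlap.

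The difference at 1421090_at between high and medium mice, which chose the family, was -0.47 with a standard error of 0.09, or a ratio of 0.723. High arrays were 0.28 lower than low arrays in the mean, and 3 of 5 lay below every low array. They were 0.24 lower than inconsistent arrays in the mean, and 2 of 5 lay below every inconsistent array. Medium arrays exceeded low arrays by 0.19, with 8 of 12 above every low array, and exceeded inconsistent arrays by 0.23, with 12 of 12 above the inconsistent mean. These 4 differences share arrays with the choice and are also given without a test. The medium mice stood as far from the inconsistent mice on 1 side as the high mice did on the other. In bulk tissue, fewer cells of a type that expresses the gene and less RNA per cell cannot be told apart.

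The comparison of low with inconsistent mice shares no array with the choice of Epb41l1. At 1421090_at the low mean exceeded the inconsistent mean by 0.05 with a standard error of 0.07 (limma adjusted p = 0.997, 95% interval -0.10 to 0.20). The order of the means was therefore high, inconsistent, low and medium, and the neighbours inconsistent and low did not differ beyond their spread.

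The low value of the high group at 1421090_at was uneven across the spike-in clusters. In the third cluster 4 high arrays were 0.50 below 5 medium arrays, 0.36 below 5 low arrays and 0.28 below 9 inconsistent arrays. In the second cluster the single high array was 0.18 below 5 medium arrays but 0.05 above 2 low and 0.05 above 2 inconsistent arrays. The excess of medium over inconsistent arrays was 0.14, 0.23 and 0.23 in the 3 clusters. Leaving out 1 high or medium array at a time gave high minus medium differences between -0.55 and -0.39, and -0.46 without medium replicate 9. These values rest on the arrays that chose the probe set and are a description.

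The second Epb41l1 probe set, 1434575_at, was also lowest in the high mice in the mean, but its group differences stayed within the spread. The high arrays read 9.22, 9.20, 9.07, 9.06 and 9.04 (mean 9.12 ± 0.09 SD). Low arrays ran from 8.91 through 9.35 to 9.85 (9.33 ± 0.27 SD), medium arrays from 9.01 through 9.34 to 9.67 (9.30 ± 0.19 SD) and inconsistent arrays from 8.98 through 9.25 to 9.55 (9.25 ± 0.16 SD). All 5 high arrays lay below the means of the low, medium and inconsistent groups, and each lay inside the range of all of them. The high minus medium difference, a description, was -0.18. The high minus low difference was -0.21 (standard error 0.11, limma adjusted p = 0.585, 95% interval -0.42 to 0.01). Against inconsistent mice it was -0.13 (limma adjusted p = 0.652, 95% interval -0.33 to 0.06).

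The third Epb41l1 probe set, 1460592_at, gave no lower level in high mice. Its high arrays read 9.86, 9.92, 10.09, 9.93 and 9.85 (mean 9.93 ± 0.10 SD), medium arrays averaged 9.91 ± 0.14 SD, and low and inconsistent arrays both averaged 9.84. The high minus medium difference was 0.02, in the opposite direction to the other 2 probe sets of the gene. The high minus low difference was 0.09 (standard error 0.08, limma adjusted p = 0.772, 95% interval -0.07 to 0.24).

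Agreement between probe sets of 1 gene was measured by correlation over the 41 arrays, in 10 pairs with p-values from 100000 permutations adjusted over the pairs. On the 22 low and inconsistent arrays, which the choice of Epb41l1 did not use, 0 of the 10 pairs passed on r or on rho. There the Epb41l1 pair 1434575_at and 1421090_at had r = 0.30 and rho = 0.41 (permutation, adjusted p = 0.387 for r and 0.174 for rho), and the pair 1460592_at and 1421090_at had r = 0.49 and rho = 0.47 (permutation, adjusted p = 0.206 and 0.174). Over all 41 arrays the pairs with 1421090_at are given as a description, since those arrays hold the values that chose it. The r of 1434575_at and 1421090_at was 0.42 over all arrays, 0.45 without the 2 arrays farthest from the median and 0.38 without medium replicate 9. The r of 1460592_at and 1421090_at was 0.23. The pair without the choosing probe set, 1460592_at and 1434575_at, had r = 0.31 and rho = 0.34 (permutation, adjusted p = 0.123 for r and 0.0962 for rho). Within the spike-in clusters the r of 1434575_at and 1421090_at was 0.31, 0.26 and 0.40, and 0 of the 10 pairs passed on r or rho in any cluster. Over all arrays r between the 3 probe sets of Epb41l1 thus ran from 0.23 to 0.42.

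Epb41l2 encodes the widely expressed member of the family. Its probe set 1433490_s_at, whose suffix marks probes shared by several transcripts, averaged 8.88 ± 0.08 in high, 8.91 ± 0.06 in low, 8.90 ± 0.13 in medium and 8.88 ± 0.11 in inconsistent mice (SD). Probe set 1433492_at averaged 7.67 ± 0.03, 7.61 ± 0.15, 7.60 ± 0.19 and 7.65 ± 0.14 in the same order. The 5 high arrays of 1433492_at lay between 7.62 and 7.72, inside the range of 7.33 to 7.85 of the low arrays. Probe set 1433491_at averaged 7.10, 7.15, 7.08 and 7.09, and the dimmer 1459619_at 5.97, 5.91, 5.91 and 5.82. Without medium replicate 9 the medium mean was 7.64 ± 0.13 at 1433492_at and 5.84 ± 0.18 at 1459619_at (SD, n = 11). Medium minus low at 1433492_at was -0.004 with that array and 0.04 without it. Medium minus inconsistent at 1459619_at was 0.09 with it and 0.01 without it. The low, medium, high and inconsistent groups overlapped at all 4 probe sets.

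No pair of Epb41l2 probe sets passed with a positive correlation. The pair 1433490_s_at and 1433492_at ran in opposite directions with r = -0.46 and rho = -0.36 (permutation p = 0.00278, adjusted p = 0.0278 for r and 0.0962 for rho), and r was -0.32 without the 2 farthest arrays. Medium replicate 9 held the highest value of the first, 9.17, and the lowest of the second, 7.15. Without that array r was -0.30 (permutation, adjusted p = 0.218), and within the spike-in clusters it was 0.15, -0.78 and -0.33, with that array in the second. The other 5 pairs of the gene had r from -0.31 to 0.19.

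Epb41l3 encodes the member known from brain and from contacts between axons and glia, where it binds adhesion molecules. Its brightest probe set, 1419062_at, read 10.03, 10.05, 10.12, 10.09 and 10.07 in the high mice (mean 10.07 ± 0.03 SD). Low arrays averaged 10.08 ± 0.06 SD and inconsistent arrays 10.02 ± 0.10 SD. Medium arrays ran from 9.94 through 10.06 to 10.59, and the top value was medium replicate 9. The medium mean was 10.11 ± 0.17 with that array and 10.06 ± 0.09 without it (SD, n = 11). Probe set 1426010_a_at averaged 8.77, 8.78, 8.78 and 8.76 in high, low, medium and inconsistent mice. The pair had r = 0.24 and rho = 0.27 (permutation, adjusted p = 0.268 for r).

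Epb41l5 encodes a member known for its part in epithelial polarity. Its only tested probe set, 1455861_at, was dim: medium arrays averaged 5.88 ± 0.21, low 5.72 ± 0.19, high 5.69 ± 0.21 and inconsistent 5.65 ± 0.20 (SD). Medium arrays exceeded inconsistent arrays by 0.22 (standard error 0.08, unadjusted p = 0.00658), which did not pass the adjustment (limma adjusted p = 0.948). Of the medium arrays, 10 of 12 lay above the inconsistent mean, and the groups overlapped. The difference was 0.19 without medium replicate 9, which read 6.22. Within the spike-in clusters it was 0.27, 0.33 and 0.09. At the dimmer and untested 1439284_at, 1425199_a_at and 1459120_at of the gene, medium minus inconsistent was 0.05, 0.05 and -0.002. High minus medium, a description, was -0.19 at 1455861_at and 0.18, 0.14 and -0.19 at these dimmer probe sets in the same order. The probe sets of Epb41l5 thus did not share 1 direction.

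**Figure D2:**
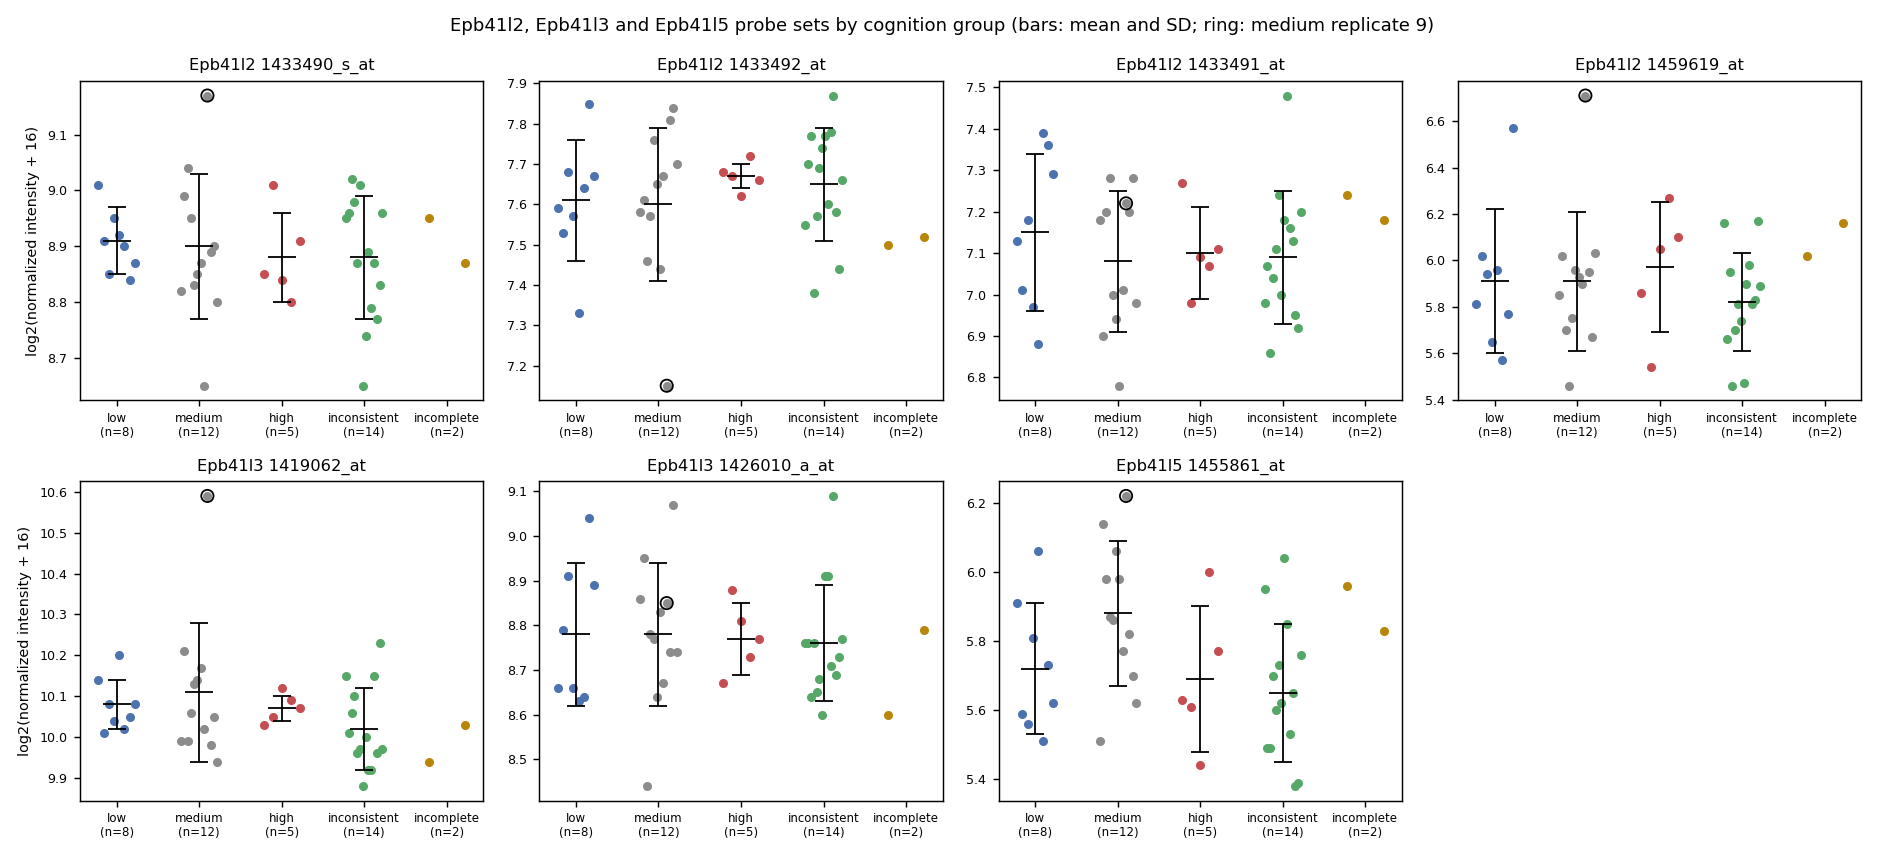
Level of the tested probe sets of Epb41l2, Epb41l3 and Epb41l5, as log2(normalized intensity + 16), on every array by group, with group means, SDs and a ring around medium replicate 9. The low, medium, high and inconsistent groups overlap in every panel. The ringed array is the highest of all at Epb41l2 1433490_s_at (9.17) and 1459619_at (6.71), Epb41l3 1419062_at (10.59) and Epb41l5 1455861_at (6.22). It is the lowest of all at Epb41l2 1433492_at (7.15).

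Across the family, no tested difference passed the threshold. In high minus low, 0 of 9 probe sets passed, where 0.00444% of all tested probe sets did; 1421090_at was left out of this count. The counts were 0 of 9 in medium minus low (all probe sets 0%), 0 of 9 in high minus inconsistent (0.00444%) and 0 of 9 in medium minus inconsistent (0%). In low minus inconsistent 0 of 10 passed (0%). At an unadjusted p under 0.05 in limma, the family counts were 0, 0, 0, 1 and 0 in this order. All 22519 tested probe sets gave 1944, 810, 2453, 1064 and 951, or 8.63%, 3.6%, 10.9%, 4.72% and 4.22%. Without medium replicate 9, 1434575_at also came under that limit in high minus low (limma, unadjusted p = 0.0464, adjusted p = 0.486). With that array its unadjusted p in limma was 0.0569. Medium replicate 9 is in neither group, and the difference was -0.208 both times, so only the estimate of spread changed. Leaving out each array in turn gave differences from -0.27 to -0.13. Low replicate 5 held the highest value of this probe set, 9.85. With so few calls over the whole array, the family counts above say little about the family. The other comparison, high minus medium, called 0.115% of all probe sets, and it chose 1421090_at, so nothing is read from it. Its 26 calls became between 0 (without high replicate 3 or 4) and 80 (without medium replicate 12) when 1 array was left out.

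The sizes of the tested differences were small. In low minus inconsistent the 10 probe sets ran from -0.04 to 0.09 with a median of 0.05, against -0.0005 over all tested probe sets. In high minus low the other 9 ran from -0.21 to 0.09 with a median of -0.01, against 0.01 over all tested probe sets. In high minus inconsistent they ran from -0.13 to 0.14, and in medium minus inconsistent from -0.05 to 0.22. The comparisons share groups, so their values are not independent of each other.

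**Figure D3:**
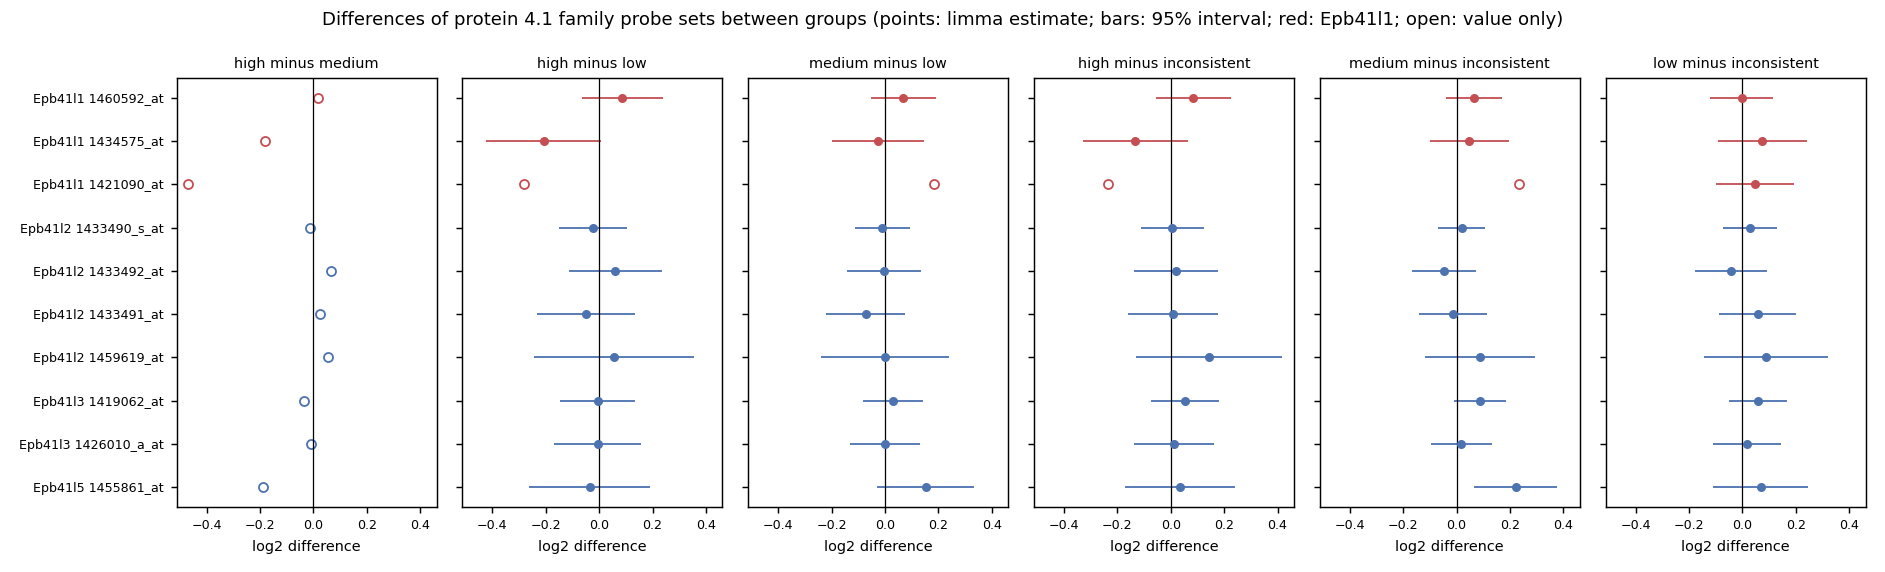
Difference between group means (log2 scale) for the 10 tested probe sets in 6 comparisons, as limma estimates with 95% intervals; Epb41l1 is red, and open circles are values given without a test or interval. In high minus medium, the comparison that chose the family, 1421090_at sits at -0.47 and 1460592_at of the same gene at 0.02.

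The 5 probe sets below the brightness limit were not tested. Epb41l2 1452541_at averaged 5.33 in high, 4.96 in low, 5.13 in medium and 5.05 in inconsistent mice. Epb41l3 1440595_at averaged 4.80, 5.09, 4.91 and 4.84, and Epb41l5 1439284_at 5.85, 5.73, 5.67 and 5.62. The remaining Epb41l5 probe sets 1425199_a_at and 1459120_at averaged 5.31, 5.06, 5.17 and 5.13, and 4.32, 4.49, 4.50 and 4.50. Their SDs within groups reached 0.41, and all of these groups overlapped.

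Other genes of the membrane skeleton and its partners were read from lists, each at its brightest probe set with 1 symbol. Other probe sets of these genes were not read. The shares over all tested probe sets can count a gene at several probe sets. Of 20 genes of the spectrin-actin skeleton, 18 were measured, and 0 passed the threshold in any of the 5 tested comparisons (limma). At an unadjusted p under 0.05 the counts were 1 in high minus low and 3 in high minus inconsistent, and 0 in the other 3, where 8.63%, 3.6%, 10.9%, 4.72% and 4.22% of all tested probe sets passed that limit in high minus low, medium minus low, high minus inconsistent, medium minus inconsistent and low minus inconsistent. The list's median high minus low difference was -0.01, against 0.01 over all tested probe sets. Ank3, which encodes the ankyrin of the axon initial segment, was 0.19 higher in high than in low mice (standard error 0.06, unadjusted p = 0.00272, limma adjusted p = 0.41). Sptbn4, the spectrin found with it there, differed by -0.14 (limma adjusted p = 0.651), and the erythrocyte-type ankyrin gene Ank1 by 0.14 (limma adjusted p = 0.629). In low minus inconsistent the smallest unadjusted p-values were those of the tropomyosin gene Tpm1 (0.14), the spectrin gene Sptb (-0.15) and the actin gene Actg1 (-0.04), each with a limma adjusted p of 0.997.

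Of 24 known binding partners of the family's proteins, 14 were tested, and 0 passed in any tested comparison (limma). At an unadjusted p under 0.05 the counts were 1, 1, 1, 1 and 2, in the order of the shares over all probe sets given above. Drd2, Gypc, Cntnap1 and Slc4a1 lay below the brightness limit, and no probe set was found for the other untested partners. Cask, a synaptic scaffold that binds protein 4.1, was 0.37 higher in low than in inconsistent mice (standard error 0.11, unadjusted p = 0.00192, limma adjusted p = 0.997). Pals1, a polarity scaffold, was 0.12 higher in the same comparison (limma adjusted p = 0.997), and the arginine methyltransferase gene Prmt3 0.08 lower (difference -0.08). In high minus low, Agap2 differed by -0.22 (limma adjusted p = 0.557), the methyltransferase gene Prmt5 by 0.09 and the adhesion gene Cntnap2 by 0.07. Gria1, whose receptor subunit binds the Epb41l1 protein and which was named for that outside the naming rule after its values were seen, differed by 0.03 between high and low mice (standard error 0.12, limma adjusted p = 0.961).

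Of 12 related FERM domain genes, 11 were tested and 0 passed in any tested comparison (limma), and Frmd3 lay below the brightness limit. At an unadjusted p under 0.05 the counts were 1, 2, 0, 0 and 0, in the order of the same shares. Msn, which encodes the actin linker moesin, was 0.24 lower in high than in low mice (difference -0.24, standard error 0.09, limma adjusted p = 0.486). Frmd4a and the phosphatase gene Ptpn3 differed by 0.15 and 0.12 in that comparison. In low minus inconsistent the leading genes were Msn (0.14), Epb41l4b (-0.11) and the ezrin gene Ezr (0.11), with a limma adjusted p of 0.997 each. The median high minus low difference was -0.02 for this list and -0.02 for the binding partners, against 0.01 over all tested probe sets.

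Cell type markers were set against the brightest probe set of each member over the 41 arrays. Of 36 relations, 11 passed after adjustment on Pearson's r and 0 on Spearman's rho. The leading ones were those of Epb41l3 1419062_at with CA pyramidal cell markers (r = -0.74, rho = -0.41, permutation p = 0.00039, adjusted p = 0.014), dentate granule cell markers (r = -0.72, rho = -0.22) and neocortical layer markers (r = 0.69, rho = 0.33). Without the 2 farthest arrays these r were -0.27, -0.16 and 0.22. Without medium replicate 9 alone they were -0.34, -0.17 and 0.22, and 0 of the 36 relations passed. Within the spike-in clusters the r with CA pyramidal cell markers was -0.29, -0.96 and -0.36, and medium replicate 9 is in the second. The size of these correlations over all arrays and their passing of the threshold thus rested on that array. The r with CA pyramidal cell markers stayed negative without it.

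The other 8 relations that passed on r with all arrays were weaker. Microglia markers ran opposite to Epb41l2 1433490_s_at (r = -0.49), Epb41l3 1419062_at (r = -0.46) and Epb41l5 1455861_at (r = -0.39), and without medium replicate 9 these r were -0.42, -0.39 and -0.32. Within the spike-in clusters the r with microglia markers was -0.16, -0.59 and -0.38 for Epb41l2, -0.41, -0.92 and -0.35 for Epb41l3, and -0.76, -0.85 and -0.16 for Epb41l5. Interneuron markers ran with Epb41l1 1460592_at (r = 0.42) and Epb41l5 (r = 0.42), and these r were 0.29 and 0.23 without medium replicate 9. The remaining relations were those of Epb41l2 with dentate granule cell markers (r = -0.46) and of Epb41l5 with striatal (r = 0.42) and CA pyramidal cell markers (r = -0.41), which were -0.14, 0.24 and -0.22 without that array. Choroid plexus markers, read separately in the arrays where they were dim and bright, gave 0 of 5 relations past the threshold in each. The part of these markers in any difference between groups was not tested.

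**Figure D4:**
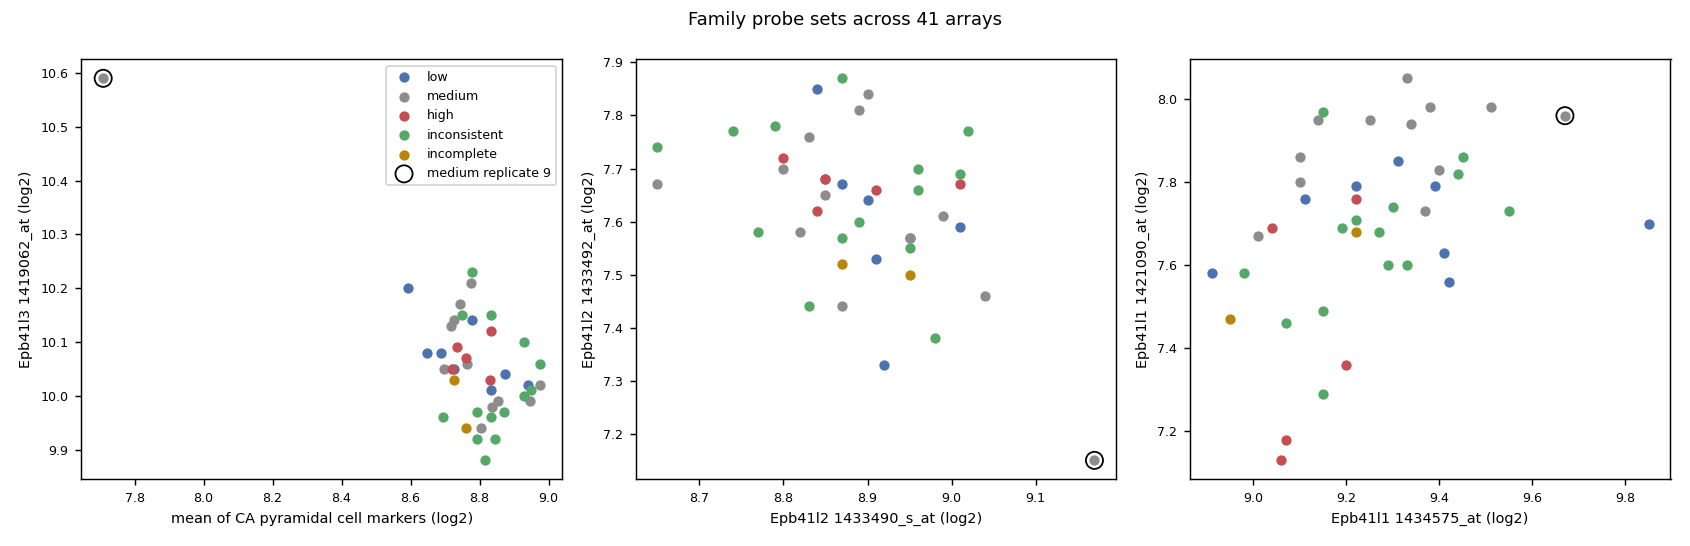
Pairs of measures over 41 arrays, all in log2 units: Epb41l3 1419062_at against the mean of CA pyramidal cell markers, Epb41l2 1433492_at against 1433490_s_at, and Epb41l1 1421090_at against 1434575_at, coloured by group. The ringed medium replicate 9 lies far from the cloud in the left panel (7.71 and 10.59) and at the corner of the middle one (9.17 and 7.15).

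Epb41l1 1421090_at was set against the same lists, against the 3' minus 5' signal of Actb and Gapdh controls and against the median signal, within a family of 24 relations added after the data were seen. Its relations are given as a description, since its values on the high and medium arrays chose the family. With striatal markers it had r = 0.41 and rho = 0.46 over all arrays, r = 0.49 and rho = 0.43 without medium replicate 9, and r = 0.31 and rho = 0.30 on the 22 low and inconsistent arrays. Within the spike-in clusters r was 0.14, 0.31 and 0.60. The mean of the striatal list ran from 7.91 to 8.11 in the high, 7.98 to 8.16 in the low, 7.95 to 8.24 in the inconsistent and 7.99 to 8.99 in the medium group. The part of these markers in the group differences at 1421090_at was not tested. Its r with the median signal was 0.38 over all arrays and 0.14 on the low and inconsistent arrays. Among the relations of the other probe sets, Epb41l1 1460592_at passed on r with the Actb 3' minus 5' signal (r = 0.43, permutation, adjusted p = 0.0353) and not on rho (rho = 0.32, permutation, adjusted p = 0.195). It did not pass without medium replicate 9 (r = 0.33, permutation, adjusted p = 0.149), and r was 0.27, 0.68 and 0.11 within the spike-in clusters.

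The genes most like each member over the 41 arrays were named by Pearson's r, as a description without a p-value. All arrays share the same normalization, so part of a correlation can be common to many genes. For Epb41l1 1421090_at they were Zfp580 (r = 0.70), Mib2 (0.68), Ydjc (0.67), Chpf (0.66) and Bap1 (0.65), and the most opposite were Dazap1 (r = -0.67), Ndufa12 (-0.66) and Hacd3 (-0.64). For the other Epb41l1 probe set named by brightness, 1460592_at, they were Dus1l (r = 0.70), Dennd5b (0.68), Atxn7l3b (0.66), Basp1 (0.66) and Pabpc4 (0.65), with Atp2b3 (-0.71), Depdc7 (-0.67) and Sec11c (-0.67) opposite. The 2 probe sets of Epb41l1 shared no gene among these names.

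For Epb41l2 1433490_s_at the most alike were the inhibitory synapse adhesion gene Nlgn2 (r = 0.76), Tacc1 (0.75), Rnf44 (0.74), Dact3 (0.74) and Ube2ql1 (0.72), and the most opposite Romo1 (r = -0.73), Mmp16 (-0.72) and Cdk14 (-0.70). For Epb41l3 1419062_at they were Strbp (r = 0.81), the release machinery gene Stx1a (0.79), the calcium pump gene Atp2b2 (0.79), the synaptic scaffold gene Dlg1 (0.78) and Flrt2 (0.77), with Grp (-0.81), Chn1 (-0.81) and Crym (-0.81) opposite. Without medium replicate 9 the r of Epb41l3 with Strbp was 0.55 and with Grp -0.57. For Epb41l5 1455861_at they were Pitpnm3 (r = 0.59), Polr2m (0.58), Nek7 (0.58), Kndc1 (0.57) and Rere (0.57), with Jpt1 (-0.61), Osgep (-0.59) and Rasl11a (-0.59) opposite.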

How the data were processed

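By their range, the values the authors deposited for 41 arrays are intensities on a linear scale; Partek and RMA are named in the submitters' processing notes, with no version or role, and array medians ran from 22.4 to 55.0. The members and lists were chosen with earlier results of these data known. Intensities were quantile-normalized with limma 3.58.1 in R 4.3.3 and put on a log2(intensity + 16) scale, and 22519 of 45037 non-control probe sets, at or above the median mean, were fitted on 39 arrays with 1 mean per group and moderated statistics, adjusted by Benjamini-Hochberg at a threshold of 0.05. Each array is 1 mouse, and the number of arrays limits the precision. Correlations and their 100000 permutations were computed with NumPy 2.4.6, with ranks from SciPy 1.17.1. Spike-in clusters came from Ward clustering of 42 control probe sets. The fit was tested on simulated data. Named genes were all members; of each list, the 3 smallest unadjusted p-values in high minus low and in low minus inconsistent; and the 5 most and 3 least alike genes; Gria1 was added outside this rule. Alternatives changed the filter, normalization, offset, arrays, variance model, weights and blocks, and left out each array in turn. Replicate numbers were taken as names: of 43 same-numbered pairs of arrays, 9 had correlated deviations above 0.1. Symbols came from the platform annotation, which gives 34945 probe sets 1 symbol, 932 several and 9160 none.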

Additional observations from a re-analysis of the deposited data

Results flagged for a closer look

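In 30 checks of member probe sets within groups of 4 to 10 arrays, 2 arrays lay far from the rest of their group, and chance marks about 1 in 20 such groups. At Epb41l2 1459619_at low replicate 8 read 6.57, and the nearest low array read 6.02. At the untested Epb41l5 1459120_at high replicate 2 read 4.89, and the nearest high array read 4.22.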

How the results depend on the processing

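In each of the 5 tested comparisons, 0 of the counted family probe sets passed under every alternative run, including the leaving out of each of 39 arrays. Probe set 1421090_at was left out of these counts except in low minus inconsistent, since its values chose the family. Of 3280 alternative values of 59 member differences, 30 moved by over 1 SD, and 0 of the tested ones crossed the threshold. The values in high minus medium, those of 1421090_at outside low minus inconsistent, and those within clusters were not tested. They could therefore not cross it. Many of the 3280 values could not move, since leaving out an array of neither compared group keeps both means. At 1421090_at high minus medium stayed at -0.468 without any low or inconsistent array. The SD in the fit ran from 0.11 to 0.26, while the low minus inconsistent differences ran from -0.04 to 0.09. The count of 30 therefore does not measure how stable the differences were. The high minus medium difference of Epb41l1 1421090_at was -0.664 without normalization, where array medians alone differed by -0.182, and -0.18 within the second spike-in cluster. Without normalization, 10 of 10 probe set pairs and 33 of 36 marker relations passed on Pearson's r. Of the pairs, 0 passed on r in the 22 low and inconsistent arrays, within each cluster, or without medium replicate 9, where 0 of the 36 marker relations passed too; on rho 1434575_at with 1421090_at passed without that array (permutation, adjusted p = 0.0473), on values that include those of the choice. Of 37 arrays, 3 correlated best with their own replicate number. With a replicate block the difference at 1421090_at was -0.452, and the block changed no tested call of a member. In high minus medium, 109 in place of 26 probe sets were then called. That count was 495 with array weights, 7 on 25 arrays, 3 without a filter, 14 with the spike-in cluster as a block, and 0 without normalization, with median centring, with both groups alone or without choroid-bright arrays. The 1 call of high minus inconsistent became 146 with array weights, 22 with the replicate block and 0 to 4 without 1 array. The 1 call of high minus low became 26 with array weights, 2 on 25 arrays and 1 to 4 without 1 array. Both reached 4 without high replicate 1. Without a filter they were 2 and 3. Both fell to 0 without normalization, with median centring, with both groups alone or without choroid-bright arrays. High minus inconsistent also fell to 0 on all 41 arrays, with the spike-in cluster as a block and with inconsistent replicate 2 in medium. Dim probe sets lie near the offset, which limits their differences.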
